A study of Haberlea rhodopensis with 10 samples.

Results

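Early light-induced proteins (ELIPs) are chloroplast proteins of the thylakoid membrane that belong to the same superfamily as the chlorophyll a-b binding proteins of the light-harvesting antenna. They are known to appear transiently in greening seedlings and in mature leaves under strong light, cold or drought, and are held to bind chlorophyll and carotenoids without feeding light energy into photosynthesis. In Arabidopsis, ELIP1 and ELIP2 respond to light signalling through photoreceptors and the transcription factor HY5, and in other resurrection plants ELIP transcripts are known for accumulating while the leaf dries. Described here are 9 unigenes (assembled transcripts) of the resurrection plant Haberlea rhodopensis, taken from a list of names. They are contigs 1 to 7 of the assembly cluster CL3769, with Unigene32083 and Unigene19910, and each has ELIP1 as its best Swiss-Prot match, as do 12 further unigenes outside the list. They were followed singly, and contigs 1 to 7 also as a sum, among 142473 unigenes, of which 85267 had enough fragments to be tested.

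RNA was extracted from mature leaves of plants raised in vitro, kept in pots for about a year and lit for 16 h a day at a low photon flux density of 36 µmol per square metre and second. No genotype or chemical treatment separates the groups, which differ in the water status of the leaf and the time of sampling. There were 5 stages with 2 libraries each, namely F (watered control), D75 (slightly dehydrated), D20 (severely dehydrated), DT (dry) and R (rehydrated). By the sample characteristics, the relative water content of the leaf stood near 100% for F and R, near 75% for D75, near 20% for D20 and under 5% for DT, whereas the series design gives 90% for F and R and 6% for DT. Once water was withheld, plants needed at least 8 days to dry fully, they were held dry for 10 days, and recovery after watering took a week. Each sampling point used at least 4 plants, whose allotment to libraries the sources leave unsaid, so the p-values measure the spread between libraries, which may be technical in part.

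The libraries held 4522835 fragments (F replicate 2) to 12734565 fragments on unigenes. The logarithmic levels of the libraries of a stage correlated with r = 0.89 at F, 0.78 at D75, 0.96 at D20, 0.93 at DT and 0.93 at R across unigenes, which are not independent replicates. The D75 libraries therefore stood further apart than those of any other stage, and results that rest on them are given with and without them. The raw reads of D75 and D20 differed slightly in length from those of F, DT and R, which cannot be told apart from stage in comparisons across these sets. DT, R and F share a read length. Levels are FPKM (fragments scaled by transcript length and by library total) further scaled by TMM factors, and are given as mean ± SD (n = 2) or per library. Folds are log2 fold changes with standard errors from the edgeR quasi-likelihood test, called at a Benjamini-Hochberg adjusted p below 0.05 over all tested unigenes.

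The members were alike in annotation and differed in length. Contigs 1 to 7 measured 700 to 968 nt, Unigene32083 853 nt and Unigene19910 283 nt. The Swiss-Prot alignment scores of the first 8 lay between 182 and 204, and that of the short Unigene19910 was 45.8. The best Nr match came from Coffea canephora for contigs 1, 2 and 7, from Tarenaya hassleriana for contigs 3 and 6 and both single unigenes, from Brassica rapa for Contig4 and from Sesamum indicum for Contig5. Contigs 8 and 9 of the cluster have no annotation and were left out of the sum. Contigs of a cluster can share reads, so the division of fragments among them is uncertain. The summed fragments of contigs 1 to 7 do not depend on how they were divided within that set. They would depend on reads shared with Contig8 or Contig9, and the summed FPKM also depends on the contig lengths. Unigene32083 is the member that the study also chose for quantitative PCR. Whether its primers tell it apart from the other ELIP unigenes was not checked here. Both are 18 nt long with 10 G or C bases:
Unigene32083 forward primer: tggttgaggatggtggtg
Unigene32083 reverse primer: tgtccgtagcctttgtgc

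The transcripts of the 9 members were at far lower levels in watered leaves than in leaves at D20 and DT. They were not all scarce in watered leaves, since CL3769.Contig5 ranked 2429th and 1316th of the 85267 tested unigenes in F replicates 1 and 2. The CL3769 sum was at 49.3 and 57.8 scaled FPKM in F, 18.5 and 775 at D75, then 28322 and 21249 at D20, then 34371 and 43834 at DT, and 2664 and 2932 in R. Only the D75 libraries overlapped with another stage, and they lay on either side of F. Relative to F, the sum was 9.08 ± 1.48 log2 units higher at D20 (mean ± SE, edgeR adjusted p = 0.00061) and 9.72 ± 1.52 higher at DT (adjusted p = 0.00073). As ratios of stage means these are 463-fold and 730.4-fold. In bulk leaf RNA, a change in the share of cells of a type and a change of RNA per cell cannot be told apart. The 9 members together made up 2.20% and 1.62% of all fragments at D20 (Wilson 95% intervals 2.19 to 2.21% and 1.61 to 1.63%) and 3.09% and 3.95% at DT (3.08 to 3.10% and 3.93 to 3.96%). In the F libraries the same 9 took 0.00464% and 0.00732% (0.00421 to 0.00511% and 0.00657 to 0.00815%). These intervals, and the floor of 3 fragments used further on, cover counting error only.

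**Figure D1:**
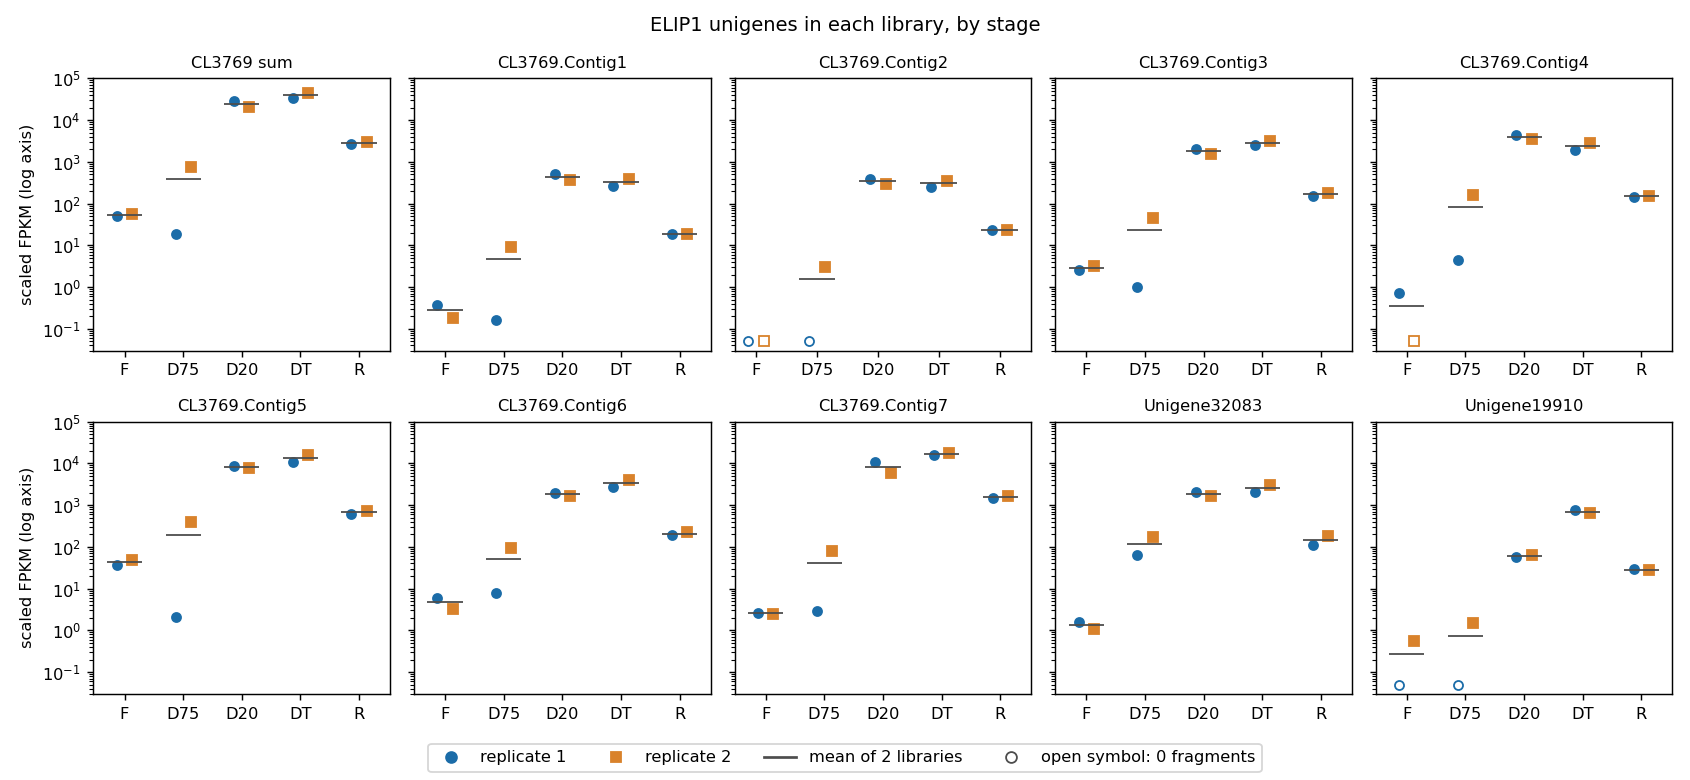
Levels of the CL3769 sum and of the 9 ELIP1 unigenes at the 5 stages, in the order F, D75, D20, DT and R. Each point is a library on a logarithmic axis of TMM-scaled FPKM. All members were highest at D20 or DT, R lay between F and DT (2664 and 2932 for the sum), and the D75 points of a member are far apart.

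Within the cluster, Contig7 and Contig5 carried most of the transcript. CL3769.Contig7 was at 2.65 and 2.49 scaled FPKM in F, 2.92 and 77.6 at D75, then 10586 and 6013 at D20, then 16039 and 17374 at DT, and 1501 and 1626 in R. By level per length it ranked 2nd and 1st of the 85267 tested unigenes in DT replicates 1 and 2, and 4th and 11th in D20 replicates 1 and 2. Its libraries at DT thus lay above both of those at D20, but the difference of 1.01 ± 0.98 log2 units was not called (edgeR adjusted p = 0.72). CL3769.Contig5 was the member with the highest level in watered leaves, at 36.9 and 48.6 scaled FPKM in F, 2.08 and 385 at D75, then 8509 and 7751 at D20, then 10601 and 15694 at DT, and 624 and 709 in R. Its folds over F were the smallest of the 9 members in both comparisons, 7.57 ± 1.65 log2 units at D20 (edgeR adjusted p = 0.0047) and 8.26 ± 1.70 at DT (adjusted p = 0.005).

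CL3769.Contig4 was nearly absent from watered leaves. It was at 0.717 and 0 scaled FPKM in F, 4.57 and 161 at D75, then 4363 and 3537 at D20, then 1983 and 2818 at DT, and 147 and 155 in R. Both libraries at D75 lay above both in F, and those at D20 above those at DT. It was 13.22 ± 1.78 log2 units higher at D20 than in F (edgeR adjusted p = 0.00026), whereas the difference of -0.72 ± 1.04 of DT against D20 was not called (adjusted p = 0.84). Contig1 and Contig2 were the members of the cluster with the lowest levels. CL3769.Contig1 averaged 0.282 ± 0.143 scaled FPKM in F, 4.64 ± 6.33 at D75, 439.8 ± 94.9 at D20, 324 ± 88.5 at DT and 18.7 ± 0.262 in R. CL3769.Contig2 had 0 fragments in both F libraries and in D75 replicate 1, and 342 ± 64.7 scaled FPKM at D20, 306 ± 73.9 at DT and 23.9 ± 0.176 in R. Against a floor of 3 fragments per F library its level was at least 599-fold higher at D20, 537-fold at DT and 41.9-fold in R. Contigs 1, 2 and 4 were thus the members whose means stood higher at D20 than at DT, none of them by a called difference.

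Contigs 3 and 6 had middling levels. CL3769.Contig3 was at 2.51 and 3.22 scaled FPKM in F, 1.00 and 46.3 at D75, then 2059 and 1587 at D20, then 2512 and 3235 at DT, and 156 and 177 in R. CL3769.Contig6 was at 6.11 and 3.28 in F, 7.74 and 93.0 at D75, then 1910 and 1693 at D20, then 2719 and 3967 at DT, and 193 and 223 in R. Both followed the course of Contig5 and Contig7, with DT libraries above those of D20 and no called difference between these stages (0.66 ± 0.99 and 0.89 ± 0.80 log2 units, edgeR adjusted p = 0.85 and 0.69). The unannotated Contig8 and Contig9 averaged 2734 and 414 scaled FPKM at DT, against 1.07 and 0 in F.

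The single unigenes were assembled outside the cluster. Unigene32083 was at 1.55 and 1.10 scaled FPKM in F, 62.9 and 174 at D75, then 2012 and 1694 at D20, then 2050 and 3110 at DT, and 110.3 and 182 in R. It was the member with the clearest difference at slight dehydration, since each D75 library was far above each F library and they differed from each other by 2.76-fold. Unigene19910, the shortest, was at 0 and 0.551 scaled FPKM in F (0 and 1 fragments), 0 and 1.48 at D75 (0 and 5 fragments), then 55.7 and 63.3 at D20, then 756 and 639 at DT, and 28.8 and 28.0 in R. It was the only member called higher at DT than at D20, by 3.55 ± 0.61 log2 units or 11.7-fold (edgeR adjusted p = 0.039), and its D20 mean was 8.53% of its DT mean. With so few fragments in F its ratios are loose. Pooled over libraries, it was 260.5-fold higher at D20 than in F (95% interval of the counts 46.4 to 10317) and 3049-fold at DT (547 to 120456). Whether Unigene19910 differed in course from the other members was not tested. Its call between DT and D20 was lost when any library of F, D20, DT or R was left out.

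At D20 and DT, all 9 members passed the test against F. The members were chosen with earlier results of these data known, so this count describes them and is no independent support. Contigs 1, 2 and 4 and Unigene19910 were below an FPKM of 1 in both F libraries. They entered the test only through stages at which they were higher. At D20 their log2 folds lay between 7.57 and 14.19 with a median of 10.42, against -0.40 over all tested unigenes, and 13.4% of these were called higher. At DT the folds lay between 8.26 and 14.03 with a median of 10.89, against -0.29 over all unigenes, and 9.46% of these were called higher. All 9 were also called higher at D20 than at D75 (10.1% of all), by 3.97 to 7.81 log2 units. All 9 stayed called without D75 replicate 1 and without D75 replicate 2, but the size of these folds rests on the library kept. The CL3769 sum, D20 vs D75, was 5.15 log2 units without D75 replicate 1 and 10.48 without D75 replicate 2, and CL3769.Contig5, D20 vs D75, was 4.40 and 11.92. Between DT and D20 only Unigene19910 was called higher (0.228% of all), and the contigs lay between -0.72 and 1.01 log2 units. Scaling by library totals in place of TMM factors moved the median of all unigenes by -0.58 log2 units at D20 and -0.35 at DT against F, and all 9 members stayed called higher in both comparisons. It also moved the share of calls that were higher over all unigenes, to 25.5% at D20 and 29.8% at DT, against 42.0% in both with TMM.

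**Figure D2:**
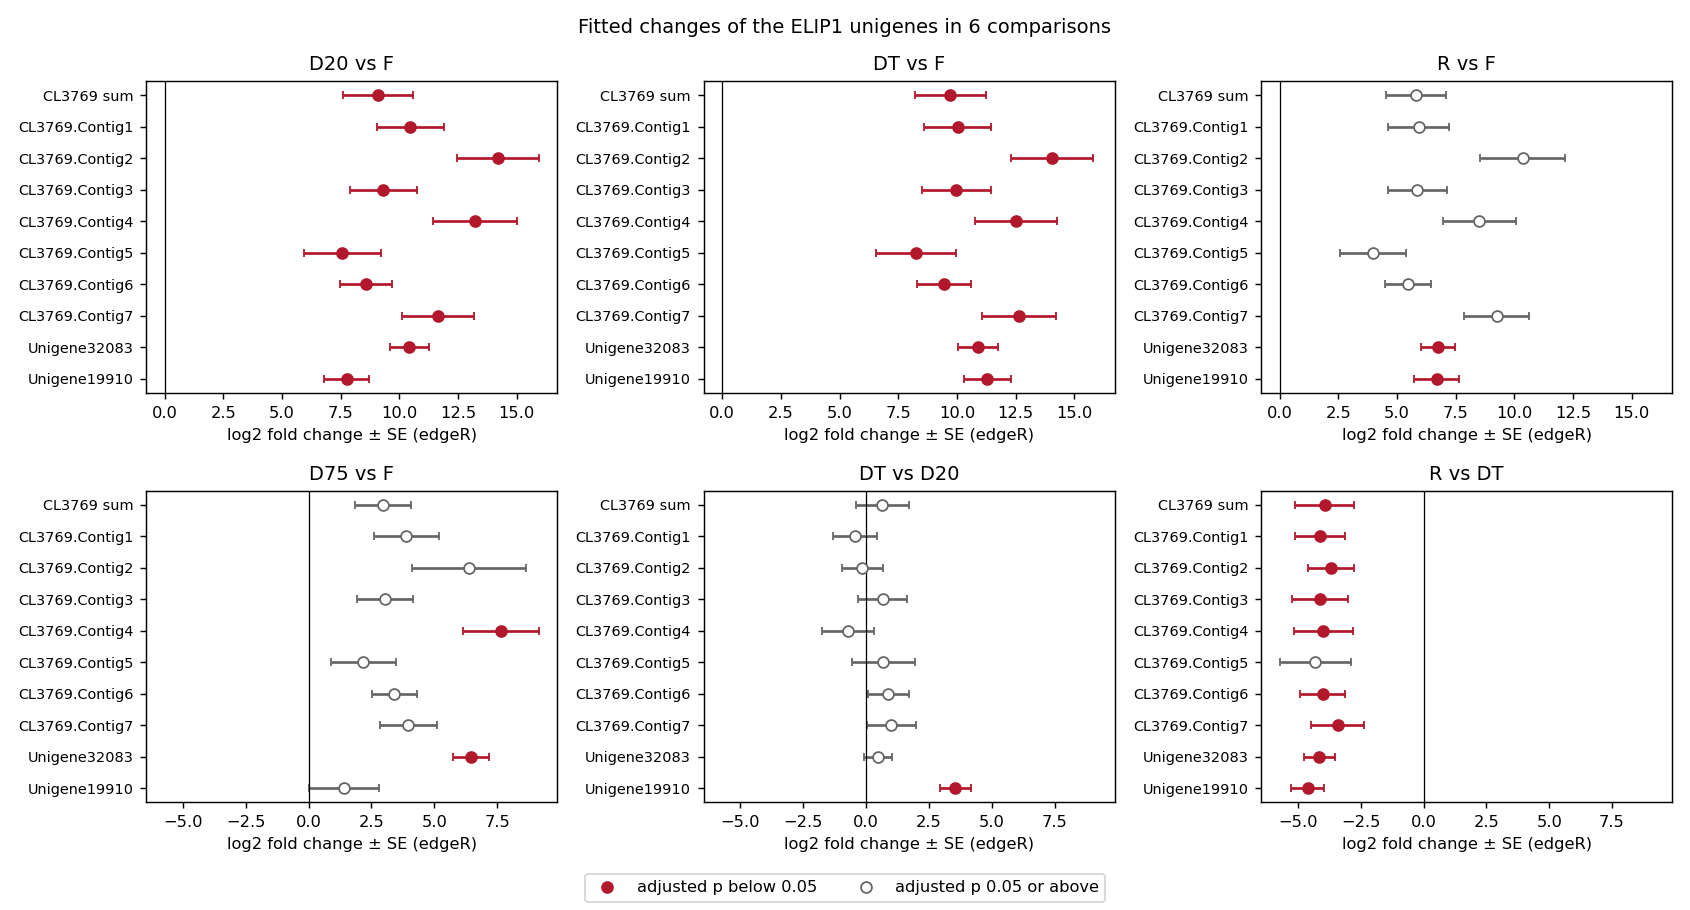
Log2 fold changes of the CL3769 sum and of the 9 members in D20 vs F, DT vs F, R vs F, D75 vs F, DT vs D20 and R vs DT, with bars for the standard error of the edgeR fit. Filled points passed an adjusted p of 0.05. All 9 members passed in D20 vs F and DT vs F, 8 of 9 in R vs DT, and 2 of 9 in R vs F and in D75 vs F.

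At slight dehydration, D75, only Unigene32083 and Contig4 were called higher than in F, 2 of 9 members against 0.683% of all unigenes. Unigene32083 was 6.45 ± 0.72 log2 units higher (edgeR adjusted p = 0.0058) and Contig4 7.65 ± 1.51 (adjusted p = 0.031). The CL3769 sum, with a difference of 2.96 ± 1.13, was not called (adjusted p = 0.21). An unadjusted p below 0.05 was reached by 7 members, a looser limit for which the share of all unigenes is not given here. The D75 libraries disagreed on nearly every member. Replicate 2 was higher than replicate 1 in 9 of 9 members, by 2.76-fold for Unigene32083 and up to 185-fold for Contig5, and 8 of 9 differed by at least 10-fold or had 0 fragments in replicate 1. Of all 7851 unigenes with a mean of at least 10 scaled FPKM at D75, 4.66% were at least 10-fold higher in replicate 2. For such unigenes the same comparison takes in 6 members, of which 5 passed that fold. At each of D20, DT and R, by contrast, the members' libraries differed by 1.01-fold to 1.76-fold. Without D75 replicate 2, the difference of CL3769.Contig5 from F was -4.35 log2 units. Which members were called at D75 depended on single libraries. Without F replicate 2 none was called, and without F replicate 1 or any library of D20, DT or R only Unigene32083 was. The difference of the sum between D75 and F was 3.93 log2 units without D75 replicate 1 and -1.48 without D75 replicate 2. The share of all unigenes called in the fits with a library left out is not given here. Counts of members in them therefore cannot be set against it.

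ELIP transcripts of rehydrated leaves lay above the watered level in every member, though few differences were called. Both R libraries lay above both F libraries in 9 of 9 members, as did 23.6% of all unigenes. Called higher than in F were Unigene32083 (6.75 ± 0.73 log2 units, edgeR adjusted p = 0.014) and Unigene19910 (6.68 ± 0.98, adjusted p = 0.044), which is 2 of 9 against 0.0293% of all unigenes. Unigene32083 averaged 146 ± 50.6 scaled FPKM in R and 1.32 ± 0.321 in F. Contig7 averaged 1563 ± 88.3 in R and 2.57 ± 0.107 in F, a ratio of 608, and missed the threshold (adjusted p = 0.055). The sum averaged 2798 ± 189.9 in R and 53.5 ± 6.03 in F, a difference of 5.79 ± 1.28 log2 units that was not called (adjusted p = 0.16). With both D75 libraries left out of the fit, all 9 members and the sum were called higher in R than in F. The share of all unigenes called in that fit is not given here, so the count cannot be set against it. Without F replicate 1, F replicate 2 or R replicate 2 none was called, and without R replicate 1 or any library of D20 or DT it was 1.

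Relative to the dry state, all 9 members were lower in R, and 8 of 9 were called lower, against 5.63% of all unigenes. The folds of all 9 lay between -4.61 and -3.42 log2 units with a median of -4.11, against 0.13 over all unigenes. Unigene19910 fell by 4.61 ± 0.64 (edgeR adjusted p = 0.001) and Unigene32083 by 4.14 ± 0.62 (adjusted p = 0.0014). Contig7 fell least, by 3.42 ± 1.06 (adjusted p = 0.048). Contig5 also fell, to 666 ± 59.8 scaled FPKM in R from 13148 ± 3601 at DT. It was the member whose difference, -4.30 ± 1.42, was not called (adjusted p = 0.06). What remained in R was 4.08% of the DT mean for Unigene19910, 9.36% for Contig7 and 7.16% for the sum. The sum fell by 3.93 ± 1.17 (adjusted p = 0.039), a call that was lost without any single library of D20, DT or R. Without any single library of DT or R, fewer members were called lower, at folds close to those given. The share of all unigenes called in these fits is not given here.

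Ordered by their means, 6 members and the sum ran F, D75, R, D20 and DT, and contigs 1, 2 and 4 had DT and D20 exchanged. Neighbours in that order were mostly not told apart by the test. R was not called different from D75 for the sum (2.83 ± 1.12 log2 units, edgeR adjusted p = 0.28), and 1 of 9 members, Unigene19910, was called higher in R than at D75 (0.257% of all unigenes), by 5.28 ± 0.78 (adjusted p = 0.016). Unigene32083 had the smallest difference there, at 146 ± 50.6 scaled FPKM in R and 118 ± 78.3 at D75, with overlapping libraries. Against D20, 6 of 9 members were called lower in R (10.6% of all), with folds of -4.71 to -3.11 log2 units. Contig5, Contig7 and Unigene19910 were not called in it. Unigene19910 in R still stood at 47.8% of its D20 mean, with a difference of -1.06 ± 0.57 (adjusted p = 0.19). These counts rest on single libraries, since the number of members called lower than at D20 was 1 without R replicate 1 or R replicate 2 and 2 without D20 replicate 1. The number called higher than at D75 also changed with the library left out. For none of these fits is the share of all unigenes called given here.

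The make-up of the cluster was taken as the share of its fragments on each contig. Of all fragments on contigs 1 to 7, Contig5 held 78.7 ± 6.61% in F, 29.6 ± 26.6% at D75, 32.5 ± 4.43% at D20, 32.7 ± 3.44% at DT and 23.4 ± 0.509% in R (mean ± SD, n = 2). Contig7 held 4.84 ± 0.733% in F, 12.6 ± 3.89% at D75, 32.4 ± 6.35% at D20, 42.8 ± 4.93% at DT and 55.5 ± 0.646% in R. Watered leaves therefore had a cluster made up mainly of Contig5, and rehydrated leaves a cluster with more Contig7 than any other contig. Contig4 held 0.765 ± 1.08% in F, 23.5 ± 2.60% at D75, 16.7 ± 0.909% at D20, 6.38 ± 0.487% at DT and 5.64 ± 0.166% in R. Contig6 held 41.9% of the 241 fragments of D75 replicate 1 (Wilson 95% interval 35.9 to 48.2%) and 12.2% of the 8232 of D75 replicate 2 (11.5 to 12.9%), beyond counting error. In F the shares rest on 392 and 324 fragments, and they were not tested against other stages. A test of contig usage (diffSpliceDGE of edgeR, each contig against the rest of its cluster) called 0 of the 9 contigs in DT vs D20, where 0.0529% of 41563 contigs were called, and 0 of 9 in R vs DT, where it was 1.69%. No contig of the cluster reached an unadjusted p below 0.05 in either, the lowest being 0.29. Contig7, for one, stood 0.39 log2 units higher relative to its cluster in R than at DT (adjusted p = 1).

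**Figure D3:**
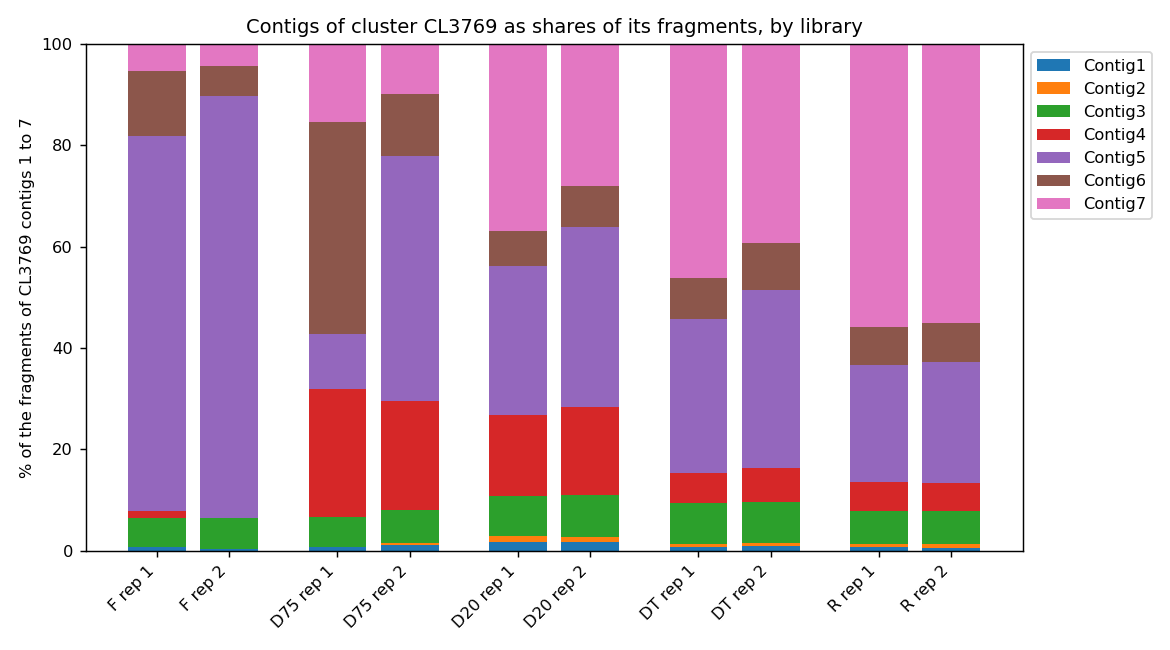
Share of the fragments of CL3769 contigs 1 to 7 held by each contig, in percent, for each of the 10 libraries in the order F, D75, D20, DT and R. Contig5 takes most of the F bars (78.7% on average), and the share of Contig7 is largest in R (55.5% on average). The D75 bars differ from each other, with 10.8% and 48.4% for Contig5.

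The table names 22 ELIP unigenes in all, so 13 lie outside the 9 members. Of these, 12 match ELIP1 and Unigene2027 matches ELIP2. At D20 vs F, 10 of the 13 were called higher and 1 lower (18.5% of all unigenes were lower there), with a median of 7.09 log2 units. At DT vs F, 11 were called higher and 1 lower (13.1% of all were lower), with a median of 8.19. At D75 vs F, edgeR called 0 of the 13, and 8 had an unadjusted p below 0.05, again without the share of all unigenes. The 3 with the highest mean level resembled the members. Unigene32084 averaged 7.86 ± 2.30 scaled FPKM in F, 60.4 ± 58.2 at D75, 2528 ± 364 at D20, 5608 ± 1842 at DT and 389 ± 71.5 in R, and was the only other ELIP unigene called higher in R than in F (5.62 ± 0.82 log2 units, edgeR adjusted p = 0.044). Unigene32091 averaged 1.58 ± 0.383 in F, 20.7 ± 26.8 at D75, 1870 ± 259 at D20, 3094 ± 489 at DT and 225 ± 21.0 in R. Unigene32081 averaged 1.84 ± 0.0271 in F, 61.0 ± 80.6 at D75, 1332 ± 139 at D20, 2053 ± 699.8 at DT and 113 ± 37.0 in R.

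Unigene32087, named after its values were seen, ran the other way, although its best match is ELIP1 too. It was at 116 and 83.3 scaled FPKM in F, 26.5 and 11.4 at D75, then 0.562 and 0.682 at D20, then 2.25 and 0.628 at DT, and 113 and 56.2 in R. Its libraries at D20 and DT thus lay far below all others. Relative to F it fell by 7.29 ± 0.75 log2 units at D20 (edgeR adjusted p = 6.1e-05) and by 6.11 ± 0.70 at DT (adjusted p = 0.00021). In R it was 5.87 ± 0.69 higher than at DT (adjusted p = 0.00043) and not called against F (-0.24 ± 0.54, adjusted p = 0.92). In watered leaves it averaged 99.8 scaled FPKM, above the sum of contigs 1 to 7 at 53.5. Unigene2027 passed in no comparison, at 3.25 at D20 and 2.16 in F, from 14 and 7 fragments in all, and Unigene32086 was called against F at DT alone (3.37 ± 0.74, adjusted p = 0.0069). In R vs DT, 10 of the 13 were called lower and 1 higher (9.52% of all unigenes were higher there). All 22 together made up 4.17% and 5.41% of fragments at DT (Wilson 95% intervals 4.16 to 4.18% and 5.40 to 5.42%).

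**Figure D4:**
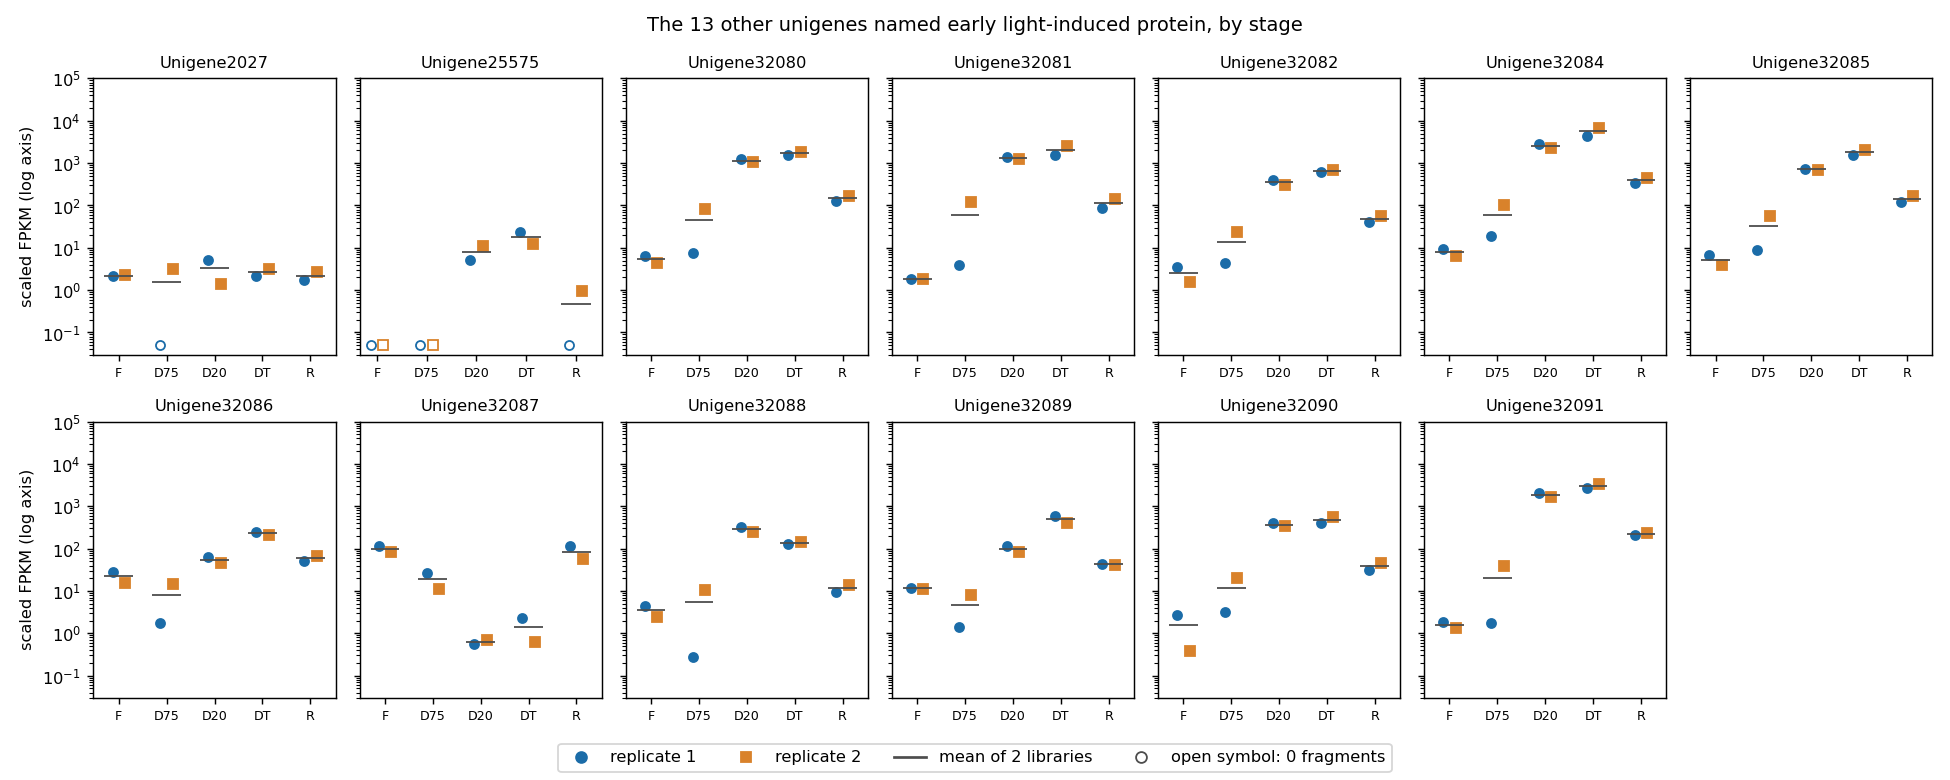
Levels of the 13 other ELIP unigenes over the 5 stages as TMM-scaled FPKM on a logarithmic axis, a point for each library. Most follow the members, with maxima at D20 or DT, whereas Unigene32087 is lowest at D20 (0.562 and 0.682) and high in F and R.

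Lists of related proteins and pigment pathways were counted in the same test, in which 13.4% of all unigenes were called higher and 18.5% lower at D20, and 9.46% higher and 13.1% lower at DT. The chlorophyll a-b binding proteins hold the antenna pigments, and of their 43 tested unigenes 0 were called higher and 34 lower at D20, and 1 higher and 31 lower at DT, with medians of -6.35 and -3.55 log2 units. The 32 calls at DT became 17 without DT replicate 1 and 19 without DT replicate 2. Among those with the highest level, CL14927.Contig1, which matches chlorophyll a-b binding protein 7, averaged 75.7 ± 46.3 scaled FPKM at D20 and 1815 ± 173 in F (-4.58 ± 0.60, edgeR adjusted p = 0.00022). Unigene9580, a match to chlorophyll a-b binding protein 40, averaged 215.0 ± 93.2 at D20 and 2139 ± 493 in F (-3.31 ± 0.61, adjusted p = 0.0016). The stress-enhanced proteins and PsbS are closer relatives of ELIPs in protection against light, and of 12 unigenes 2 were called higher and 8 lower at D20, and 0 higher and 6 lower at DT. Unigene24040, which matches stress enhanced protein 1, averaged 48.1 ± 2.32 at D20 and 502 ± 55.7 in F (-3.38 ± 0.42, adjusted p = 0.00016). Unigene38108, a match to PsbS, which is needed for rapid dissipation of excess light energy, averaged 72.0 ± 18.3 at D20 and 482 ± 107 in F (-2.74 ± 0.46, adjusted p = 0.00093).

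The xanthophyll cycle interconverts violaxanthin and zeaxanthin, a pigment that helps to dissipate light energy, and its enzymes moved in both directions. Of 41 unigenes, 21 were called higher and 8 lower at D20, and 18 higher and 4 lower at DT, against 13.4% higher and 18.5% lower of all unigenes at D20 and 9.46% and 13.1% at DT. The 22 calls at DT became 14 without DT replicate 2, 13 without F replicate 1 and 11 without F replicate 2. The pair of highest level both match zeaxanthin epoxidase, which turns zeaxanthin back into violaxanthin. CL10949.Contig2 averaged 139 ± 25.0 scaled FPKM at D20 and 78.8 ± 17.6 in F, which was not called (0.82 ± 0.66, edgeR adjusted p = 0.35). CL9659.Contig2 averaged 12.5 ± 5.22 at D20 and 37.6 ± 0.301 in F (-1.58 ± 0.43, adjusted p = 0.015).

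Of 69 unigenes of chlorophyll synthesis, 3 were called higher and 27 lower at D20, and 4 higher and 20 lower at DT, against 13.4% higher and 18.5% lower of all unigenes at D20 and 9.46% and 13.1% at DT. The 24 calls at DT became 14 without DT replicate 1. CL15566.Contig2, a match to protochlorophyllide reductase, the light-dependent step of the pathway, averaged 1.11 ± 0.413 scaled FPKM at D20 and 765 ± 351 in F (-9.41 ± 0.82, edgeR adjusted p = 3.5e-05). CL4541.Contig1, a match to the same enzyme, averaged 12.1 ± 12.0 at D20 and 604 ± 182 in F (-5.64 ± 0.84, adjusted p = 0.00049). Of 35 unigenes of chlorophyll breakdown, 7 were called higher and 17 lower at D20, and 5 higher and 9 lower at DT. The 24 calls at D20 became 11 without F replicate 2, 12 without D20 replicate 1 and 13 without D20 replicate 2. At DT the 14 became 6 without DT replicate 1 or DT replicate 2, 9 without F replicate 1 and 5 without F replicate 2. The 2 with the highest level were among the higher ones. Unigene28805, a match to pheophytinase, which removes the phytol chain from pheophytin, averaged 302 ± 27.7 at D20 and 60.1 ± 26.2 in F (2.33 ± 0.46, adjusted p = 0.0027). Unigene7859, a match to pheophorbide a oxygenase, which opens the chlorophyll ring, averaged 191 ± 47.2 at D20 and 53.5 ± 11.8 in F (1.84 ± 0.48, adjusted p = 0.012).

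Regulators of light signalling act upstream of ELIP genes in Arabidopsis. Of their 147 unigenes, 21 were called higher and 30 lower at D20, and 12 higher and 27 lower at DT, against 13.4% higher and 18.5% lower of all unigenes at D20 and 9.46% and 13.1% at DT. The 51 calls at D20 became 32 without F replicate 1 or D20 replicate 2 and 28 without D20 replicate 1. At DT the 39 became 18 without DT replicate 1 or DT replicate 2, 23 without F replicate 1 and 21 without F replicate 2. Unigene14530, a match to the ultraviolet-B receptor UVR8, averaged 42.7 ± 4.31 scaled FPKM at D20 and 56.2 ± 2.23 in F and was not called (-0.40 ± 0.42, edgeR adjusted p = 0.49). Unigene1706, a match to a phytochrome A-associated F-box protein, averaged 118 ± 0.912 at D20 and 19.0 ± 4.82 in F (2.63 ± 0.39, adjusted p = 0.00043).

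**Figure D5:**
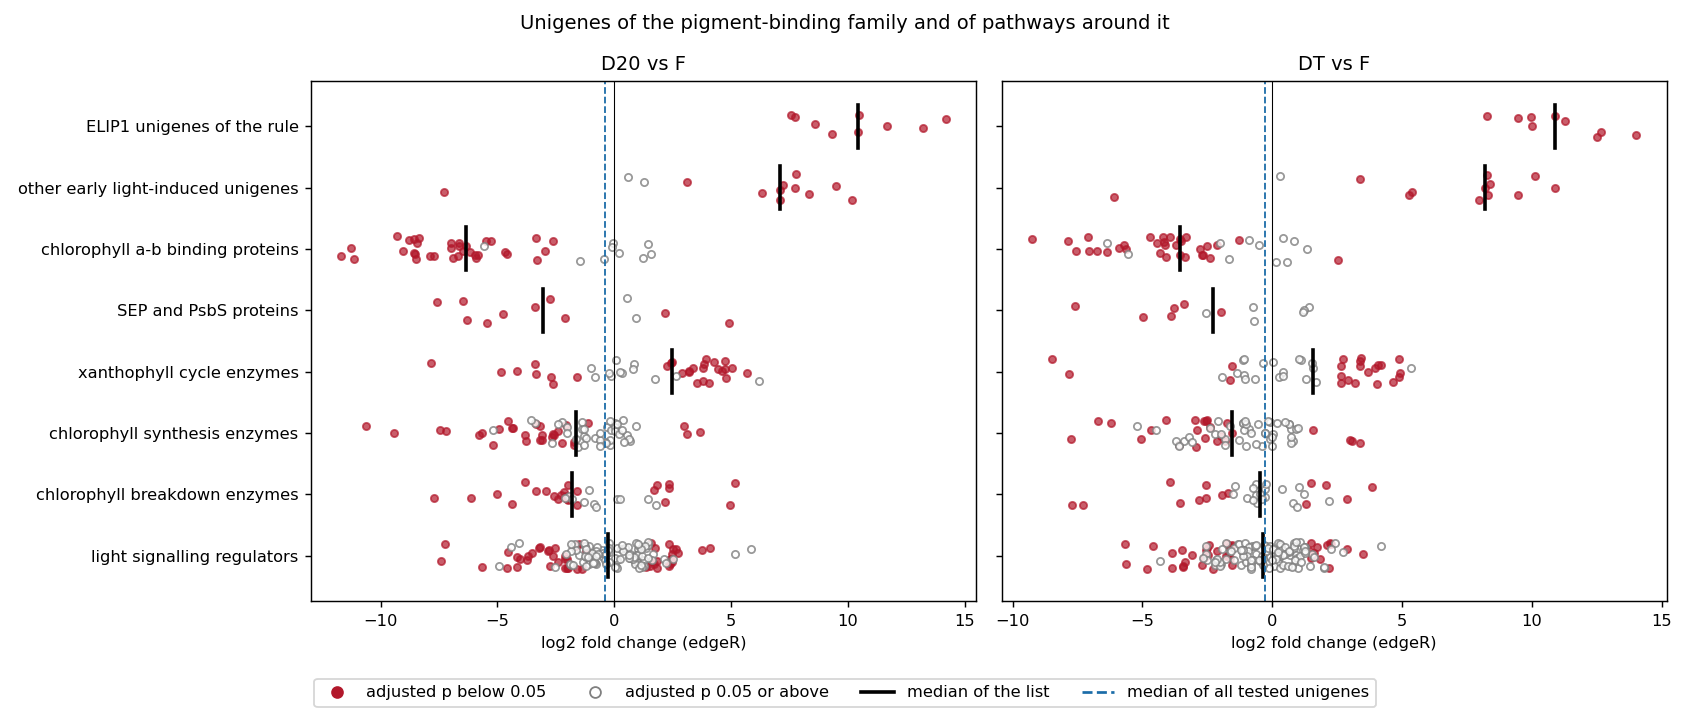
Log2 fold changes of the single tested unigenes of each list in D20 vs F and DT vs F. The median of each list is marked, and a dashed line gives the median of all tested unigenes. The ELIP members are all higher at D20 and DT. The antenna proteins are mostly lower there, with 34 and 31 of 43 called lower.

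Markers of leaf cell types were checked beside these changes. Leaf mesophyll markers (RuBisCO small chain, RuBisCO activase and antenna proteins, 60 tested) summed to 686 to 1098 scaled FPKM at D20, 3468 to 3756 at DT and 33021 to 36796 in R, against 35129 to 37206 in F, and 48 of 60 were called lower at D20, where 18.5% of all unigenes were. These markers are photosynthesis genes, so the antenna list enters both counts. The unigenes of the guard cell list summed to 11.8 to 12.9 at D20 and 122 to 133 in F, with 17 of 21 called lower. This list takes in any match to EPIDERMAL PATTERNING FACTOR, which was not shown here to be particular to guard cells. Its highest unigene, CL2796.Contig1, matches EPIDERMAL PATTERNING FACTOR-like protein 9 and averaged 58.0 ± 2.78 scaled FPKM in F. The sum is therefore not a measure of guard cells alone. Epidermis markers summed to 2.75 to 5.85 at D20 and 259 to 315 in F, with 15 of 18 called lower. Vascular markers summed to 9.19 to 12.2 at D20 and 38.3 to 60.0 in F, with 6 of 19 called lower. No marker of the lists was at 0 in every library. The part of cell make-up in the ELIP differences was not tested.

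The 9 members varied together over the 10 libraries, with Pearson correlations of 0.82 to 0.99 between their logarithmic levels (36 pairs, median 0.95). These are descriptions over 5 stages with 2 libraries each, and contigs of the cluster may share reads. Outside the ELIPs, 6477 named unigenes with a mean FPKM of at least 10 were ranked by the correlation of their logarithmic level with that of the sum. The first was CL11551.Contig1, which matches the alpha subunit of mitochondrial pyruvate dehydrogenase, the enzyme that feeds pyruvate into the citric acid cycle (r = 0.99). Its level moved little, at 18.0 ± 0.466 scaled FPKM in F, 21.9 ± 7.36 at D75, 39.7 ± 4.99 at D20, 46.5 ± 0.765 at DT and 32.1 ± 3.33 in R. The next was CL5676.Contig2, which matches aldo-keto reductase 4C9, an enzyme that reduces reactive aldehydes (r = 0.99). It averaged 7.96 ± 0.469 in F, 22.0 ± 28.0 at D75, 495 ± 41.1 at D20, 558 ± 31.4 at DT and 52.8 ± 8.59 in R.

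CL11598.Contig1, described as stress response protein NST1-like (r = 0.98), averaged 5.56 ± 0.484 scaled FPKM in F, 28.3 ± 30.5 at D75, 208 ± 23.7 at D20, 317 ± 0.837 at DT and 50.1 ± 13.1 in R. CL6859.Contig3 matches GDP-mannose 3,5-epimerase, which acts in the making of ascorbate (r = 0.98). It averaged 6.77 ± 0.644 in F, 7.07 ± 3.64 at D75, 37.4 ± 2.46 at D20, 37.0 ± 1.00 at DT and 15.5 ± 2.23 in R. CL2143.Contig5 matches PCC13-62, a protein first described in the resurrection plant Craterostigma plantagineum (r = 0.98). With 0.1 in place of 1 added to the levels before the logarithm, this unigene ranked 31st (r = 0.97). It averaged 1.58 ± 1.31 in F, 9.06 ± 9.77 at D75, 194 ± 29.9 at D20, 262 ± 54.5 at DT and 62.8 ± 31.2 in R. CL2477.Contig2, a match to a peptidyl-prolyl cis-trans isomerase (r = 0.98), averaged 6.63 ± 1.08 in F, 8.24 ± 4.30 at D75, 20.5 ± 1.30 at D20, 28.7 ± 4.72 at DT and 14.1 ± 1.94 in R.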

How the data were processed

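Leaf RNA of Haberlea rhodopensis was sequenced as 10 libraries, 2 for each of 5 stages. The authors assembled the trimmed reads with Trinity into unigenes, with no reference genome, and name RSEM for abundances. Versions, the strand setting of the kit and the division of reads among contigs are not given in the sources used here. The deposited table holds whole fragment counts, FPKM, lengths and database matches, each with a score, the alignment score as the authors listed it. In the deposited FPKM, a count is divided by the unigene length and the library total, and recomputed FPKM differed by at most 5e-05. Unigene sequences were not analysed here.

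Tested were the 85267 of 142473 unigenes that reached an FPKM of 1 in 2 or more libraries. The test was edgeR 4.0.16 under R 4.3.3 (TMM, glmQLFit, glmQLFTest) with 1 coefficient per stage, all 10 libraries, and library totals taken over all unigenes. The fit had 5 residual degrees of freedom and a common biological coefficient of variation of 0.435. Contigs were also summed by cluster (55842 rows tested), and contig usage was tested with diffSpliceDGE. A standard error is the absolute fold (log2) divided by the square root of the F statistic. Folds against 0 fragments use a floor of 3 fragments per library, which is 2.4e-05% to 6.6e-05% of a library. Likeness used log2(scaled FPKM + 1). Tables and figures were made in Python 3.11.15 (numpy 2.4.6, pandas 2.3.3, matplotlib 3.10.9, scipy 1.17.1). The code was also run on simulated counts in which some unigenes were raised at D20 and DT, and some contigs at DT alone. That simulation held no changes at D75 or R, and its outcome is not given here.

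The members, lists and markers were chosen with earlier results of these data known. The rule names the members, the 3 other ELIP unigenes and, for every list, the 2 unigenes of highest mean FPKM. It adds the 6 unigenes most like the sum among those with a mean FPKM of at least 10, at most 1 per cluster and description. Marker lists cover leaf mesophyll, guard cell, vascular and epidermis. Alternatives were other scalings, DESeq2 1.42.0, limma 3.58.1 on log2(FPKM + 1), no filter, fewer libraries, a replicate block, a stricter threshold and each library left out in turn.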

Additional observations from a re-analysis of the deposited data

How the results depend on the processing

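At D20 and DT against F, the members were called higher under every alternative, 8 or 9 of 9 in number, and the CL3769 sum passed in each. The other comparisons moved, and the cause was not tested unless named. Calls over all unigenes moved as well. The number called higher in R vs F was 25 in the reported fit, 412 with DESeq2 and 94 with limma. In D75 vs F it was 582 in the reported fit, 1508 with DESeq2 and 1355 with limma. For fits without a filter or with fewer libraries, the numbers over all unigenes are not given here. At D75 vs F, 2 members were called in the reported fit, 6 with DESeq2, 7 without a filter, 0 with only the 4 libraries compared, 8 with F replicate 2 and D75 replicate 1 both left out (the doubted libraries, an alternative chosen after seeing the data, as was leaving out both D75 libraries) and 0 when the call also needed a 2-fold change and its adjusted p a limit of 0.001. At R vs F, 2 were called, 8 with DESeq2, 6 with limma, 9 without a filter, with only the 4 libraries, with both doubted libraries left out or with both D75 libraries left out, and 0 at the stricter threshold. At D20 vs D75 it was 2 with only the 4 libraries and 3 at the stricter threshold, and at DT vs D20 it was 0 under each. The stricter threshold left 1 member in R vs DT and 0 in R vs D20. At R vs D75 the count was 2 with library totals and with DESeq2, 3 with limma, 4 without a filter and with the doubted libraries left out, and 0 with only the 4 libraries and at the stricter threshold.

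For the log2 fold of the CL3769 sum, D75 vs F passed the threshold without a filter (2.97) and with the doubted libraries left out (3.93). For the CL3769 sum, R vs F passed with DESeq2 (5.72), no filter (5.80), only the 4 libraries (5.76), the doubted libraries out (5.86) and both D75 libraries out (5.76). The CL3769 sum, R vs D75, passed without a filter (2.84) and with the doubted libraries out (1.93). The CL3769 sum, R vs D20, passed with median-of-ratios factors (-3.27), library totals (-2.84), DESeq2 (-3.27), no filter (-3.25), only the 4 libraries (-3.25), the replicate block (-3.36), the doubted libraries out (-3.23) and both D75 libraries out (-3.25). The CL3769 sum, D20 vs D75, did not pass with only the 4 libraries (6.11), nor did the CL3769 sum, R vs DT, with limma (-3.72). Reversed in sign were Contig5 in D75 vs F with limma (-0.56), Contig2 in DT vs D20 with library totals (0.077) and limma (0.072), and, with the doubted libraries out, CL3769.Contig4, R vs D75 (-0.037) and Unigene32083, R vs D75 (-0.19).

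With each library left out in turn, where a lone library was assumed to vary like the other stages, members called ran from 0 to 8 in D75 vs F, 0 to 9 in R vs F, 8 to 9 in D20 vs D75, 0 to 1 in DT vs D20, 2 to 9 in R vs DT, 0 to 8 in R vs D75 and 1 to 9 in R vs D20. The sum ran from -1.48 to 3.93 in D75 vs F, 5.70 to 5.88 in R vs F, 5.15 to 10.48 in D20 vs D75, -4.09 to -3.74 in R vs DT, 1.86 to 7.24 in R vs D75 and -3.49 to -3.05 in R vs D20. Reversals occurred in D75 vs F for Contig1 (-0.83 to 4.87), Contig3 (-1.49 to 4.02), Contig5 (-4.35 to 3.17) and Unigene19910 (-2.58 to 4.04), in DT vs D20 for Contig2 (-0.42 to 0.073), and in R vs D75 for Contig4 (-0.10 to 5.04) and Unigene32083 (-0.25 to 1.22). Same-numbered libraries did not deviate together (correlations -0.19 to 0.08 over 10 stage pairs). Whether they share plants or a batch cannot be told from this, and the reported fit does not pair them. With the replicate block, 3 members were called in R vs F, and the sum in R vs DT was at -3.90. With the D75 numbers crossed against F, chosen after seeing the data, 2 members were called in D75 vs F. Contig2, Contig4 and Unigene19910 had F libraries at 0 fragments, so their levels in those libraries are known only up to the floor of 3 fragments.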
